A study of Arabidopsis thaliana with 12 samples.

Results

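The comparison set 3 stem libraries labelled fer against 3 libraries of ccr, 6 of the 12 libraries of the series, without the use of the wild type. By their labels the fer plants carried the fer4 allele of FERONIA (FER, AT3G51550) and the ccr plants the ccr1-3 allele of cinnamoyl-CoA reductase 1 (CCR1, AT1G15950), both in Arabidopsis thaliana. RNA came from the main inflorescence stem of 2-month-old plants, with 3 biological replicates of each genotype. The other 6 libraries were of the double mutant (ccrfer) and of Col-0 (WT), and they enter below as levels set beside the 2 single mutants and in the shared estimate of the spread. The genotype labels of the double mutant name ccr1-3/fer4 for one library and ccr1-3/fer5 and ccr1-3/fer6 for the other two, whereas the protocol names ccr1-3/fer4 alone. The members were the 18428 of 27655 genes at an FPKM of 1 or more in at least 3 of the 12 libraries. FPKM is the fragment number corrected for transcript length and for the size of the library. Differences are fer minus ccr on the log2(FPKM + 1) scale, so a positive value means a higher level in the libraries labelled fer, and a gene is called higher or lower where the adjusted p of limma lay under 0.05.

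FERONIA is a receptor kinase of the plasma membrane that binds RALF peptides and pectin, and it is known for roles in cell wall sensing, cell expansion, immune receptor complexes and the restraint of jasmonate and abscisic acid signalling. CCR1 catalyses the entry step of the lignin-specific branch of the phenylpropanoid pathway, in which hydroxycinnamoyl-CoA esters become the aldehydes from which monolignols are made. Plants with weakened CCR1 are known for reduced lignin, collapsed vessels, small stature and raised defence genes.

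The FER transcript did not follow the label. FER (AT3G51550) had 85.1, 83.1 and 83.95 FPKM in the libraries labelled fer, against 100.4, 97.7 and 96.5 FPKM in ccr. The groups did not overlap, but their difference of -0.22 (SE 0.197, adjusted p = 0.407) did not pass the test. The WT mean was 84.1 FPKM. In ccrfer FER had 0.894, 0.159 and 1.49 FPKM, a mean of 0.849 FPKM. These uneven low values entered the shared estimate of the spread. Fitted on the 6 libraries alone the same FER difference had an adjusted p of 0.00415, and with AT2G01021 (described below) as a covariate it was -0.765 with an adjusted p of 0.00456. Genes beside FER on chromosome 3 differed between the libraries labelled fer and those of ccr. DGAT2 (AT3G51520), a diacylglycerol acyltransferase gene, had 0.374, 0 and 0 FPKM in the libraries labelled fer, against 18.6, 21.5 and 19.1 FPKM in ccr. Its overlapping antisense neighbour AT3G51530, an F-box protein gene, had 0.0316, 0 and 0 FPKM in the libraries labelled fer, against 5.78, 7.34 and 6.29 FPKM in ccr. Both groups of libraries were apart for both genes, with differences of -4.22 (SE 0.141, adjusted p = 8.15e-10) and -2.88 (SE 0.133, adjusted p = 1.19e-08). The low level was shared with ccrfer, at means of 0.0571 FPKM for DGAT2 and 0 for AT3G51530. The WT means were 24.3 and 6.47 FPKM. AT3G51540, between that pair and FER, was listed at 0 in all 3 libraries labelled fer and had 0.670, 0.310 and 0.643 FPKM in ccr, too low for the test. Its mean was 0 in ccrfer and 0.520 FPKM in WT. On the other side of FER, AT3G51560, a disease resistance gene of the TIR-NBS-LRR class, had 3.43, 4.17 and 4.05 FPKM in the libraries labelled fer, against 0.0222, 0.0133 and 0 FPKM in ccr. AT3G51560 reached 1 FPKM in the libraries labelled fer alone and so had to differ to be tested, and no test result is given for it. Its mean was 0.0286 FPKM in ccrfer and 0.00671 FPKM in WT. Of the outer genes within 4 places of FER, AT3G51570 had 0.0696, 0 and 0 FPKM in the libraries labelled fer, against 0.00795, 0 and 0 FPKM in ccr, and LTP12, of the lipid transfer protein family, had 0, 0 and 0.638 FPKM in the libraries labelled fer, against 0.132, 0 and 0 FPKM in ccr, both too low for the test. The outer genes that were tested were closer together, with differences of 0.45 (SE 0.132, adjusted p = 0.0182) for AT3G51510, lost without fer replicate 2 (adjusted p 0.0732) or ccr replicate 1 (adjusted p 0.0711), and -0.04 (SE 0.087, adjusted p = 0.778) for AT3G51580. These genes lie between 19108990 and 19136675 on chromosome 3 of assembly TAIR10.1. CCR1 had 354, 301 and 302 FPKM in the libraries labelled fer, against 220.0, 189 and 188 FPKM in ccr, and the groups did not overlap, with a difference of 0.68 (SE 0.104, adjusted p = 0.000278). The CCR1 means were 319 FPKM in fer, 236 FPKM in WT, 206 FPKM in ccrfer and 199 FPKM in ccr. The ccr mean thus lay nearer to WT than the fer mean did. Because of the FER levels, every direction below is that of the libraries labelled fer.

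**Figure D1:**
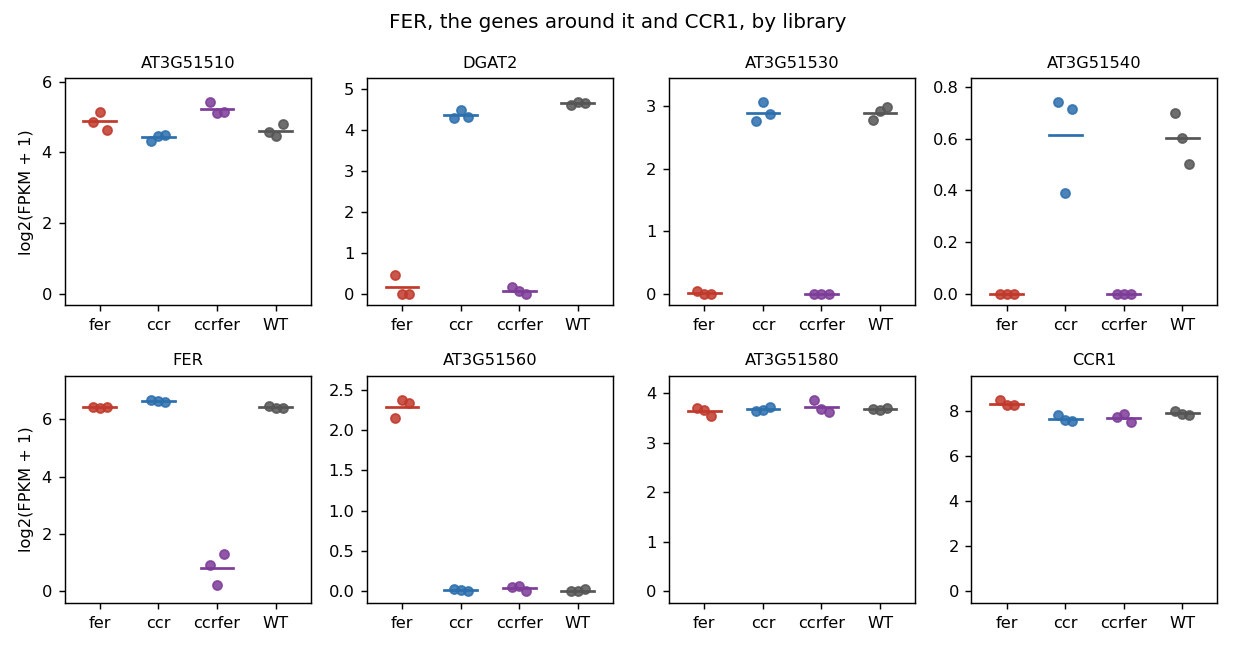
Levels of FER, 6 genes around it and CCR1 in each library, as log2(FPKM + 1) on the vertical axis, with a point for each library and a line at the mean of each genotype. FER lies near 6.4 in fer and WT and near 0.8 in ccrfer, while DGAT2 and AT3G51530 lie near 0 in fer and ccrfer and AT3G51560 lies above 2 in fer alone.

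The libraries labelled fer held 56884740 to 105661460 reads and those of ccr 88425048 to 227159338, with mapped shares of 91.43% to 92.72% and 92.41% to 94.21%. Across the tested genes r was 0.968 to 0.978 among the libraries labelled fer, 0.992 to 0.993 among ccr libraries and 0.902 to 0.926 between them, and the median SD of a gene was 0.155 in fer and 0.078 in ccr on the log2 scale. The libraries labelled fer listed 6318, 8216 and 7625 genes at 0, against 6322, 6064 and 6202 in ccr, so replicates 2 and 3 of fer exceeded every ccr library and replicate 1 did not. AT2G01021, a short gene on chromosome 2 that lies within a ribosomal RNA repeat, had 1429630, 15147300 and 8613970 FPKM in the libraries labelled fer, against 59133, 410312 and 42536 FPKM in ccr, and these groups did not overlap. Stem identity was checked with secondary wall cellulose synthase: CESA4 had 48.2, 45.7 and 40.5 FPKM in the libraries labelled fer, against 86.4, 85.8 and 83.7 FPKM in ccr, and its means were 126 FPKM in ccrfer and 2.25 FPKM in WT. This marker of thickening stem tissue was thus present in both single mutants and low in WT. The WT libraries differed from both mutants in it, which bears on every WT level given beside the single mutants.

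Of the 18428 tested genes, 3782 (20.5%) had a higher level in fer-labelled libraries than in ccr and 3403 (18.5%) a lower one, 39% in either direction. Every count of a gene group below is to be read beside these shares. Of the higher genes 907 differed by at least 1 on the log2 scale, as did 656 of the lower genes. The 3 libraries labelled fer did not overlap with the 3 ccr libraries in 10307 genes, 55.9% of those tested, and the median difference was -0.0024. Since library scaling brings the libraries to a common level, the balance of directions is no measure of a total change. The filter let 63 genes in through the libraries labelled fer alone, 61 of them called higher, and 19 through ccr alone, 17 of them called lower, and such genes had to differ to be tested. The seed markers described below held 8 of them, and 6 other gene groups held 1 each. In the jasmonate, heat shock, chloroplast and copper and iron groups that member passed through the libraries labelled fer. In the salicylic acid and cold groups it passed through ccr. These single members stay in the counts of their groups. With AT2G01021 as a covariate 3131 genes were higher and 2310 lower, among them 2629 and 2058 of those called without it, and its part in single results was not tested further. In whole stems, fewer cells of a type and less RNA per cell cannot be told apart.

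Among the genes with the largest upward differences, FSD1, the iron superoxide dismutase of plastids, had 129.9, 128 and 142 FPKM in the libraries labelled fer, against 0.298, 0.670 and 0.820 FPKM in ccr. Every ccr library lay under 1 FPKM and the groups were far apart, by 6.41 (SE 0.139, adjusted p = 1.92e-11). AT1G14250, of the GDA1/CD39 nucleoside phosphatase family, had 131, 146 and 138 FPKM in the libraries labelled fer, against 1.87, 1.86 and 2.01 FPKM in ccr, a difference of 5.58 (SE 0.133, adjusted p = 4.82e-11). NATA1, an acetyltransferase gene that responds to jasmonate, had 189, 175 and 193 FPKM in the libraries labelled fer, against 3.18, 3.31 and 3.49 FPKM in ccr and differed by 5.43 (SE 0.131, adjusted p = 5.31e-11). MLP28, of the major latex protein family, stood at 2685, 2698 and 2668 FPKM in the libraries labelled fer, against 95.8, 86.7 and 88.1 FPKM in ccr, a difference of 4.88 (SE 0.147, adjusted p = 3.75e-10). The rule that named these genes required groups that did not overlap. The double mutant fell between the groups at 30.3 FPKM for NATA1 and 629 FPKM for MLP28. The small neighbouring genes AT1G47395 and AT1G47400, listed as uncharacterized proteins, were likewise higher, by 5.16 (SE 0.224, adjusted p = 6.92e-09) and 4.87 (SE 0.24, adjusted p = 2.11e-08).

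The largest downward differences included GPT2, a plastid glucose-6-phosphate translocator, with 2.57, 2.51 and 2.59 FPKM in the libraries labelled fer, against 60.9, 62.01 and 67.1 FPKM in ccr. The 3 libraries labelled fer agreed closely and lay below every ccr library, and the difference was -4.18 (SE 0.0646, adjusted p = 7.07e-13), while the ccrfer mean of 67.3 FPKM was at the ccr level. BXL3, a beta-xylosidase that acts on wall polysaccharides, had 32.3, 29.8 and 22.05 FPKM in the libraries labelled fer, against 323, 310.0 and 316 FPKM in ccr, a difference of -3.47 (SE 0.323, adjusted p = 5e-06). PCR1, of the plant cadmium resistance family, had 0.753, 2.28 and 0.699 FPKM in the libraries labelled fer, against 45.2, 42.1 and 41.8 FPKM in ccr and differed by -4.36 (SE 0.269, adjusted p = 1.44e-07). EXLB1, an expansin-like protein, had 0.153, 0.922 and 1.13 FPKM in the libraries labelled fer, against 19.5, 17.9 and 19.4 FPKM in ccr, a difference of -3.57 (SE 0.213, adjusted p = 1.12e-07). AT3G13610, of the 2-oxoglutarate and iron-dependent oxygenase superfamily, had 1.07, 0.668 and 1.24 FPKM in the libraries labelled fer, against 19.9, 23.3 and 20.2 FPKM in ccr, and the difference was -3.48 (SE 0.166, adjusted p = 1.6e-08). That the groups did not overlap in these genes was required by the rule that named them. AT5G55450, of the lipid transfer protein family, AT5G03350, a legume lectin gene, and AT5G22460, of the alpha/beta-hydrolase superfamily, were lower, at -3.26, -3.27 and -3.23, with adjusted p values of 9.96e-09, 4.37e-06 and 7.66e-08. AT1G16820, annotated as related to a vacuolar ATPase subunit, was lower, at -4.16 (SE 0.611, adjusted p = 0.000205). AT3G04184 also met the naming rule at -3.59 (SE 1.28, adjusted p = 0.0431), but kept its call in only 6 of 18 alternative fits, and it was lost without fer replicate 2 or 3 or any ccr replicate (adjusted p of up to 0.121).

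**Figure D2:**
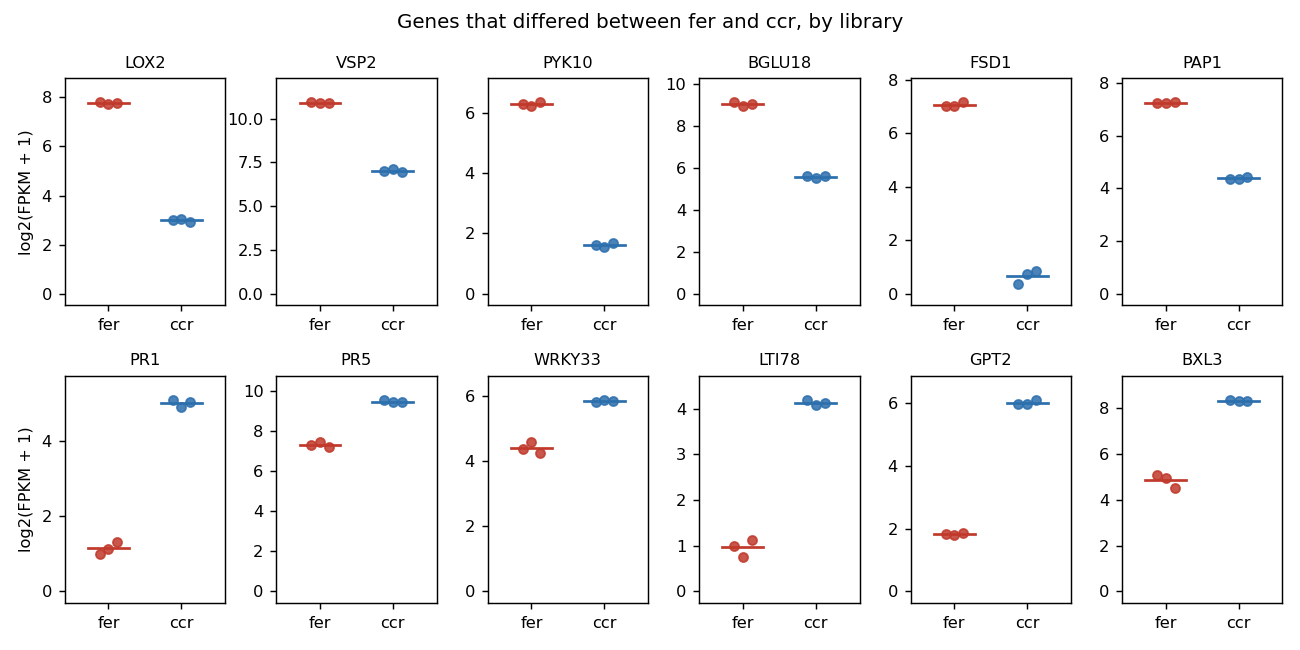
Levels of 12 named genes in the 3 libraries labelled fer and the 3 ccr libraries, as log2(FPKM + 1) on the vertical axis, with a point for each library and a line at the mean. The upper row holds genes higher in fer (LOX2, VSP2, PYK10, BGLU18, FSD1, PAP1) and the lower row genes lower in fer (PR1, PR5, WRKY33, LTI78, GPT2, BXL3), and the groups do not overlap in any of them.

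Some extreme values rest on genes listed at 0 in every library of a genotype, and these are given as listed, without a fold. ATCG00490, ATCG00280, ATCG00270, ATCG00340 and ATCG00350, identifiers of the chloroplast genome, had means of 24084, 7147, 4872, 4239.5 and 3712 FPKM in the libraries labelled fer and were listed at 0 in all 3 ccr libraries. The first 3 were listed at 0 in WT as well, whereas the other two had WT means of 4783 and 4234 FPKM. RR3, a cytokinin response regulator that overlaps an antisense gene, had 6599, 7092 and 6146 FPKM in the libraries labelled fer, against a listed 0 in every library of ccr, ccrfer and WT. AT2G07698, an ATPase alpha subunit gene, had 646, 680.1 and 703 FPKM against 0 in all ccr libraries. In the other direction AT1G64795 was listed at 0 in all 3 libraries labelled fer and had 199, 193 and 193 FPKM in ccr, and AT1G53541 was listed at 0 in fer and had 77.3, 15.4 and 82.2 FPKM in ccr. Abrupt zeros of this kind also occurred elsewhere in the table: 10 tested genes were at 0 in all libraries of a genotype and at a mean of 100 FPKM or more in another. Of the called genes, 15 higher ones were listed at 0 in all ccr libraries and 17 lower ones in all libraries labelled fer. Chloroplast genes not listed at 0 in a genotype summed to 92680 to 121600 FPKM in ccr. In WT they summed to 107200 to 192500 FPKM. Whether a listed 0 is a level or a failed estimate was not tested.

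Salicylic acid, made mainly through isochorismate, drives the PR genes of systemic acquired resistance, and this group was lower in the libraries labelled fer. Of 30 tested members 18 were lower (differences of -0.36 to -3.85) and 3 were higher (differences of 0.595 to 2.14), with a median difference of -0.68. PR1, the standard marker of salicylic acid signalling, had 0.988, 1.2001 and 1.47 FPKM in the libraries labelled fer, against 32.7, 28.5 and 31.3 FPKM in ccr. The libraries labelled fer lay close to the WT mean of 0.608 FPKM and below every ccr library, and the difference was -3.85 (SE 0.258, adjusted p = 3.01e-07). PR5, a thaumatin-like protein, had 155, 172 and 149 FPKM in the libraries labelled fer, against 749, 695 and 690.1 FPKM in ccr, a difference of -2.16 (SE 0.131, adjusted p = 1.3e-07). NIMIN1, a partner of the salicylic acid co-activator NPR1, had 1.28, 0 and 0.591 FPKM in the libraries labelled fer, against 12.7, 9.07 and 12.4 FPKM in ccr and differed by -2.998 (SE 0.293, adjusted p = 7.42e-06). The lower members also included the biosynthesis genes EDS16 and PBS3, the regulators CBP60G and SARD1 and the lipase-like immune regulator PAD4, chosen here after their values were seen, with differences of -0.96, -1.74, -1.38, -1.57 and -0.85. The 3 members that moved the other way were WRKY60, at 93.1, 90.4 and 83.1 FPKM in the libraries labelled fer, against 19.8, 19.2 and 18.99 FPKM in ccr and a difference of 2.14 (SE 0.176, adjusted p = 1.73e-06), EPS1 at 1.41 (SE 0.0821, adjusted p = 8.89e-08) and GRX480 at 0.595 (SE 0.176, adjusted p = 0.0187). This call did not hold in 4 of 18 alternative fits, among them those without fer replicate 1, ccr replicate 1 or ccr replicate 3, with an adjusted p of 0.0571 to 0.0865 in these. The mean of the double mutant lay nearer fer than ccr for 19 of the 21 called members (90.5%), against 30.3% of all 7185 called genes. Its level was not that of fer, however. Summed over the 32 listed genes it was 781 to 793 FPKM in ccrfer and 1409 to 1447 FPKM in the libraries labelled fer. The same sum was 2762 to 2944 FPKM in ccr and 1376 to 1420 FPKM in WT.

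Pattern-triggered immunity begins at receptors for microbial and damage signals. Of 24 tested members 12 were lower (differences of -0.36 to -1.903) and 1 was higher, with a median difference of -0.36. RLP23, the receptor for an NLP peptide, had 5.41, 5.64 and 5.22 FPKM in the libraries labelled fer, against 22.3, 22.6 and 24.1 FPKM in ccr, a difference of -1.903 (SE 0.0938, adjusted p = 2.11e-08). MPK11, a mitogen-activated protein kinase, and LYK5, a chitin receptor, were lower, at -1.33 (SE 0.231, adjusted p = 0.000714) and -1.16 (SE 0.0771, adjusted p = 2.77e-07). PEPR2 was the member called higher, at 0.497 (SE 0.173, adjusted p = 0.0393). The call for PEPR2 failed in 11 of 17 alternative fits, among them those without fer replicate 1, fer replicate 2, fer replicate 3, ccr replicate 1, ccr replicate 2 or ccr replicate 3, with an adjusted p of 0.0558 to 0.115 in these. In the synthesis of camalexin, the indole phytoalexin, 3 of 4 tested genes were lower and 1 higher. WRKY33, the transcription factor that switches this pathway on, had 19.7, 23.04 and 18.1 FPKM in the libraries labelled fer, against 56.3, 58.2 and 56.8 FPKM in ccr and differed by -1.46 (SE 0.131, adjusted p = 3.74e-06). The biosynthesis enzymes CYP71A13 and PAD3 were lower, at -1.84 (SE 0.237, adjusted p = 7.24e-05) and -1.01 (SE 0.106, adjusted p = 1.36e-05), whereas CYP71A12, a close copy of CYP71A13 next to it, was at 0.36 (SE 0.111, adjusted p = 0.022). Its call was lost in 5 of 18 alternative fits, among them those without fer replicate 1, fer replicate 2, ccr replicate 1, ccr replicate 2 or ccr replicate 3, with an adjusted p of 0.0554 to 0.0791 in these.

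Cysteine-rich receptor-like kinases, a family of cell surface receptors, were lower more often than higher. Of 31 tested members 15 were lower (differences of -0.38 to -2.23) and 4 were higher (differences of 0.5002 to 1.19), with a median difference of -0.34. CRK37 had 0.882, 0.880 and 0.958 FPKM in the libraries labelled fer, against 7.32, 8.09 and 8.46 FPKM in ccr, with groups far apart and a difference of -2.23 (SE 0.154, adjusted p = 3.87e-07), and ARCK1 was lower, at -1.19 (SE 0.219, adjusted p = 0.00105). CRK22, CRK18 and CRK42 were higher by 1.19 (SE 0.154, adjusted p = 7.24e-05), 0.86 (SE 0.0695, adjusted p = 1.44e-06) and 0.86 (SE 0.154, adjusted p = 0.000904). These kinases form clusters of similar genes, so reads could be split among them. Wall-associated kinases bind pectin, and 4 of 9 tested members were lower and 1 was higher. WAK1 had 51.6, 49.4 and 52.4 FPKM in the libraries labelled fer, against 107, 116 and 111 FPKM in ccr, a difference of -1.11 (SE 0.0698, adjusted p = 1.72e-07), and WAK3 differed by -0.73 (SE 0.0984, adjusted p = 9.92e-05). The lower count was 2 with the AT2G01021 covariate, and the higher member, WAKL10, was at 0.73 (SE 0.237, adjusted p = 0.0285). That call was lost in 5 of 18 alternative fits, among them those without fer replicate 3, ccr replicate 1, ccr replicate 2 or ccr replicate 3, with an adjusted p of 0.052 to 0.112 in these. Of 13 tested members of the FERONIA family and its partners, FER itself not counted, 11 were not called. RALF23, a peptide ligand of FERONIA, had 48.1, 40.2 and 41.3 FPKM in the libraries labelled fer, against 104, 94.2 and 94.2 FPKM in ccr, and all libraries labelled fer lay below all of ccr, by -1.16 (SE 0.153, adjusted p = 9e-05). The related receptor kinase HERK1 was at 0.28 (SE 0.0909, adjusted p = 0.029). This call did not hold in 6 of 18 alternative fits, among them those without fer replicate 1, fer replicate 2, ccr replicate 1, ccr replicate 2 or ccr replicate 3, with an adjusted p of 0.057 to 0.0995 in these.

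Calcium sensors and channels split. Of 26 tested members 8 were lower (differences of -0.26 to -1.94) and 6 were higher (differences of 0.26 to 0.904), with a median difference of -0.15. The shares were 30.8% lower and 23.1% higher, against 18.5% and 20.5% over all tested genes. The calmodulin-like proteins CML38, CML41 and CML23 were lower, at -1.94 (SE 0.351, adjusted p = 0.000955), -1.88 (SE 0.24, adjusted p = 6.91e-05) and -1.71 (SE 0.342, adjusted p = 0.00193). Of 15 tested cyclic nucleotide-gated channels, counted after their values were seen, 5 were higher and 2 lower, with CNGC12 at 76.7, 71.96 and 77.6 FPKM in the libraries labelled fer, against 41.8, 41.05 and 39.9 FPKM in ccr and a difference of 0.87 (SE 0.0594, adjusted p = 3.61e-07), and CNGC11 and CNGC4 higher by 0.904 (SE 0.107, adjusted p = 3.71e-05) and 0.78 (SE 0.185, adjusted p = 0.00588). CNGC11 and CNGC12 are close tandem copies, so their reads could be split. In the ethylene group, of 15 tested members 11 were lower (differences of -0.48 to -2.66) and 4 were higher (differences of 0.197 to 2.18), with a median difference of -0.94. ACS6, an enzyme of ethylene synthesis, had 8.06, 7.12 and 6.79 FPKM in the libraries labelled fer, against 31.6, 28.9 and 30.5 FPKM in ccr, a difference of -1.91 (SE 0.117, adjusted p = 1.31e-07). The ethylene response factors ERF104 and ERF5 were lower, at -2.66 (SE 0.0709, adjusted p = 1.44e-10) and -1.75 (SE 0.109, adjusted p = 1.57e-07). PR4 and HCHIB, a hevein-like protein and a basic chitinase, were higher, with PR4 at 97.96, 122 and 117 FPKM in the libraries labelled fer, against 26.8, 22.3 and 23.04 FPKM in ccr and differences of 2.18 (SE 0.112, adjusted p = 2.91e-08) and 1.73 (SE 0.299, adjusted p = 0.000691). EBF1, an F-box protein that removes the ethylene regulator EIN3, differed by 0.57 (SE 0.0654, adjusted p = 2.65e-05).

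Jasmonate, made from plastid fatty acids, acts by the removal of JAZ repressors from MYC transcription factors, and its genes were higher. Of 34 tested members 23 were higher (differences of 0.39 to 4.78) and 2 were lower (differences of -0.43 to -1.87), with a median difference of 0.91. LOX2, the lipoxygenase that starts the bulk of wound jasmonate synthesis in leaves, had 221, 212 and 215 FPKM in the libraries labelled fer, against 6.95, 7.18 and 6.58 FPKM in ccr. The libraries labelled fer lay far above ccr, by 4.78 (SE 0.0672, adjusted p = 2.95e-13), and the double mutant lay between them at 70.1 FPKM. VSP2, a storage protein and a marker of the MYC branch, had 1939.8, 1870.1 and 1906 FPKM in the libraries labelled fer, against 126, 136 and 124 FPKM in ccr and differed by 3.88 (SE 0.0588, adjusted p = 6.2e-13). Its close relative VSP1 had 26.1, 27.6 and 23.7 FPKM in the libraries labelled fer, against 1.06, 1.11 and 0.816 FPKM in ccr, a difference of 3.75 (SE 0.127, adjusted p = 8.51e-10). Of the 12 JAZ genes tested, counted after their values were seen, 10 were higher, by 0.70 to 3.13, and 0 were lower, and of the 10 JAZ7 passed the filter through the libraries labelled fer alone. The transcription factor MYC2 differed by 0.81, and the biosynthesis genes AOS and OPR3, likewise named after the values were seen, differed by 0.84 and 0.39. The lower members were the aminotransferase genes CORI3, at 1.001, 0.582 and 1.26 FPKM in the libraries labelled fer, against 5.79, 5.92 and 6.39 FPKM in ccr and a difference of -1.87 (SE 0.2, adjusted p = 1.59e-05), and TAT3, at -0.43 (SE 0.0978, adjusted p = 0.00421). With the AT2G01021 covariate TAT3 had an adjusted p of 0.0935. The ccrfer mean lay nearer fer for 9 of 25 called members (36.0%).

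Glucosinolates are sulfur-rich defence compounds that myrosinases cleave on wounding, and MYC factors are known to switch on their genes. Genes of the aliphatic branch, which starts from methionine, were mostly higher. Of 20 tested members 19 were higher (differences of 0.46 to 1.797) and 0 were lower, with a median difference of 0.95. MYB76, a regulator of this branch, had 11.7, 15.3 and 14.03 FPKM in the libraries labelled fer, against 3.23, 3.33 and 3.06 FPKM in ccr, a difference of 1.797 (SE 0.151, adjusted p = 2.11e-06). FMO GS-OX1, which oxidises the side chain, had 189.6, 193 and 179.6 FPKM in the libraries labelled fer, against 65.1, 62.5 and 62.4 FPKM in ccr and differed by 1.55 (SE 0.0934, adjusted p = 1.2e-07). GSTF11, a glutathione transferase assigned to the pathway, differed by 1.55 (SE 0.186, adjusted p = 4.08e-05). In the indolic branch, of 18 tested members 13 were higher (differences of 0.28 to 2.35) and 2 were lower (differences of -0.3998 to -0.79), with a median difference of 1.18. MYB34, its regulator, had 13.8, 13.5 and 14.7 FPKM in the libraries labelled fer, against 2.76, 2.82 and 3.19 FPKM in ccr, a difference of 1.93 (SE 0.107, adjusted p = 5.78e-08). The side-ring enzymes CYP81F3 and IGMT5 were higher by 2.29 (SE 0.177, adjusted p = 1.05e-06) and 2.35 (SE 0.31, adjusted p = 8.69e-05). MYB51, the other indolic regulator, had 15.5, 15.3 and 14.3 FPKM in the libraries labelled fer, against 28.5, 25.9 and 25.99 FPKM in ccr and was lower, at -0.79 (SE 0.0886, adjusted p = 2.27e-05), and the transporter PEN3 was lower, at -0.3998 (SE 0.054, adjusted p = 0.000104).

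Myrosinases and the proteins of endoplasmic reticulum bodies, organelles that store beta-glucosidases, were mostly higher. Of 14 tested members 10 were higher (differences of 0.56 to 4.66) and 1 was lower, with a median difference of 1.82. PYK10, the main beta-glucosidase of these bodies, had 76.5, 73.6 and 80.1 FPKM in the libraries labelled fer, against 2.07, 1.92 and 2.21 FPKM in ccr. Both groups were tight and far apart, by 4.66 (SE 0.0935, adjusted p = 1.09e-11). BGLU18, a wound-induced relative, had 559, 495 and 523 FPKM in the libraries labelled fer, against 47.96, 44.8 and 48.2 FPKM in ccr, a difference of 3.46 (SE 0.071, adjusted p = 1.28e-11). NAI2, needed to form the bodies, had 24.1, 26.9 and 22.4 FPKM in the libraries labelled fer, against 1.32, 1.58 and 1.65 FPKM in ccr and differed by 3.34 (SE 0.111, adjusted p = 8e-10). The double mutant lay near the fer level in all 3 genes, with means of 90.9 FPKM for PYK10, 579 FPKM for BGLU18 and 24.6 FPKM for NAI2, and its mean lay nearer fer for 10 of 11 called members of the group (90.9%). The lower member was NSP5, a nitrile specifier protein, at -0.303 (SE 0.0917, adjusted p = 0.0212). The call for NSP5 failed in 3 of 18 alternative fits, among them those without fer replicate 3, ccr replicate 1 or ccr replicate 2, with an adjusted p of 0.0666 to 0.0795 in these.

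Flavonoid and anthocyanin genes, the branch of phenylpropanoid metabolism beside lignin, were higher. Of 19 tested members 16 were higher (differences of 0.56 to 3.28) and 1 was lower, with a median difference of 1.38. PAP1, the MYB regulator of anthocyanin synthesis, had 149, 152 and 154 FPKM in the libraries labelled fer, against 19.4, 19.7 and 20.8 FPKM in ccr, a difference of 2.86 (SE 0.0562, adjusted p = 9.11e-12). Its relative MYB113 had 20.8, 23.3 and 23.9 FPKM in the libraries labelled fer, against 0.749, 1.94 and 1.83 FPKM in ccr and differed by 3.28 (SE 0.234, adjusted p = 5.28e-07). LDOX, an anthocyanin biosynthesis enzyme, had 348, 325 and 315 FPKM in the libraries labelled fer, against 80.2, 72.5 and 69.2 FPKM in ccr, a difference of 2.14 (SE 0.0909, adjusted p = 5.81e-09). MYB12, a regulator of flavonol synthesis, was the lower member, at 0.102, 0 and 0 FPKM in the libraries labelled fer, against 1.62, 1.202 and 1.47 FPKM in ccr and a difference of -1.23 (SE 0.151, adjusted p = 5.01e-05).

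Genes of the cold response were lower. Of 13 tested members 11 were lower (differences of -0.65 to -3.17) and 0 were higher, with a median difference of -1.49. Cold signalling runs through the CBF (DREB1) transcription factors, which bind the dehydration-responsive element in the promoters of protective COR genes. To show that element, the last 150 bases before the annotated start are printed for LTI78 and COR15A, both called lower, for STZ, a zinc finger gene called lower with a single match, and for KIN2, called lower with no match in this window. Sequences are from RefSeq assembly TAIR10.1, and capitals mark each match to CCGAC or its reverse complement GTCGG.
LTI78 (chr5:21240567-21240716, plus strand): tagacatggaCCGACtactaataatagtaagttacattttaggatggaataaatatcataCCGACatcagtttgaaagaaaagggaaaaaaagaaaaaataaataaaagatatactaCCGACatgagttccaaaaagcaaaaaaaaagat
COR15A (chr2:17712331-17712480, minus strand): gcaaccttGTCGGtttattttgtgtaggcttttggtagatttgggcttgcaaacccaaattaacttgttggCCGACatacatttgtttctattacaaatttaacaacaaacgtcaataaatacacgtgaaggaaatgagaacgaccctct
STZ (chr1:9649324-9649473, minus strand): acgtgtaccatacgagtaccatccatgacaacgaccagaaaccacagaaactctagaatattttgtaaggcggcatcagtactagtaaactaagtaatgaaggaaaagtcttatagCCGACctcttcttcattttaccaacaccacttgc
KIN2 (chr5:5211569-5211718, plus strand): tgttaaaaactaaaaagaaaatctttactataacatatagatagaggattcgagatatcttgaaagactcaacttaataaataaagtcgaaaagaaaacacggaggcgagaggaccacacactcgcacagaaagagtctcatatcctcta
LTI78, also called RD29A, holds 3 matches, COR15A 2 and STZ 1. Over the full 250 bases before the start, 4 of the 13 tested cold genes held CCGAC on either strand (30.8%), against 13.1% of the 18263 tested genes with such a window. Auxin genes held it at a like share, 6 of 19 (31.6%). Among the genes lower by at least 1 the share was 15.1%, and among those higher by at least 1 it was 9.5%.

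LTI78 had 1.003, 0.692 and 1.19 FPKM in the libraries labelled fer, against 17.3, 16.004 and 16.5 FPKM in ccr. Every library labelled fer lay below every ccr library, by -3.17 (SE 0.1, adjusted p = 5.35e-10), and the ccrfer mean of 18.8 FPKM was at the ccr level. COR15A, a chloroplast protein that protects membranes, had 0.783, 0 and 2.201 FPKM in the libraries labelled fer, against 8.97, 6.64 and 7.19 FPKM in ccr, a difference of -2.26 (SE 0.426, adjusted p = 0.00128), with an adjusted p of 0.0518 under the AT2G01021 covariate. KIN2 and COR47, further stress proteins named after their values were seen, were lower, at -1.502 and -1.62, and STZ, at -1.49. Of the CBF genes themselves, DREB1A had 0.197, 0 and 0.220 FPKM in the libraries labelled fer, against 5.93, 5.87 and 5.88 FPKM in ccr and differed by -2.603 (SE 0.39, adjusted p = 0.000238), and CBF2 and CBF1 differed by -1.96 and -1.03. DREB1A lies between CBF2 and CBF1 on chromosome 4, and the reads of these similar genes could be split among them. CBF1 reached 1 FPKM in ccr alone. LTI30, a dehydrin outside this list, had 1.21, 2.74 and 1.68 FPKM in the libraries labelled fer, against 28.9, 29.9 and 27.01 FPKM in ccr, a difference of -3.397 (SE 0.146, adjusted p = 6.19e-09).

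The abscisic acid and drought group went the same way. Of 23 tested members 16 were lower (differences of -0.22 to -2.54) and 2 were higher (differences of 0.67 to 3.21), with a median difference of -0.77. HAI2, a protein phosphatase induced by abscisic acid, had 8.18, 9.47 and 6.34 FPKM in the libraries labelled fer, against 51.9, 50.9 and 50.003 FPKM in ccr, a difference of -2.54 (SE 0.187, adjusted p = 6.72e-07). Its relative HAI1 had 2.93, 3.398 and 2.24 FPKM in the libraries labelled fer, against 16.2, 16.2 and 16.4 FPKM in ccr and differed by -2.17 (SE 0.14, adjusted p = 2.17e-07). NAC019, a transcription factor of drought and abscisic acid responses, was lower, at -2.46 (SE 0.146, adjusted p = 1.01e-07). GolS1, which makes galactinol, ran against the group at 2298, 2136 and 2123 FPKM in the libraries labelled fer, against 245, 232 and 230.3 FPKM in ccr, a difference of 3.21 (SE 0.0958, adjusted p = 3.53e-10), and GBF3, a G-box binding factor, was higher by 0.67 (SE 0.0885, adjusted p = 9.13e-05). Heat shock genes were higher in 6 of 11 tested cases and lower in 1, with 3 higher where only genes at 5 FPKM in 3 libraries were tested. HSP70 had 159.8, 158 and 151 FPKM in the libraries labelled fer, against 21.3, 19.4 and 19.4 FPKM in ccr, a difference of 2.9005 (SE 0.0896, adjusted p = 4.61e-10). HSP90.1 and HSP17.6A were higher by 2.04 (SE 0.0571, adjusted p = 2.08e-10) and 1.88 (SE 0.278, adjusted p = 0.000218), and HSFB2A was at -0.34 (SE 0.126, adjusted p = 0.0486). Its call was lost in 12 of 18 alternative fits, among them those without fer replicate 2, fer replicate 3, ccr replicate 1, ccr replicate 2 or ccr replicate 3, with an adjusted p of 0.0597 to 0.176 in these. Summed over the 15 listed heat shock genes the level was 1265, 392.4 and 1218 FPKM in the libraries labelled fer, against 578, 219 and 827 FPKM in ccr, so the groups overlapped and replicate 2 was lowest in both. Replicate 2 was lowest in WT too, at 155.6 FPKM, whereas in ccrfer replicate 3 was lowest, at 148.6 FPKM. GolS1 is itself known as a heat-induced gene.

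Among genes of senescence and developmental cell death, of 20 tested members 8 were lower (differences of -0.303 to -2.57) and 4 were higher (differences of 0.32 to 2.86), with a median difference of -0.26. The shares were 40.0% lower and 20.0% higher, against 18.5% and 20.5% over all tested genes. The largest upward differences were those of RNS3 and BFN1, nucleases, and MC9, a metacaspase. MC9 had 20.7, 23.5 and 25.2 FPKM in the libraries labelled fer, against 2.68, 3.02 and 3.78 FPKM in ccr, a difference of 2.54 (SE 0.279, adjusted p = 1.97e-05), and RNS3 and BFN1 differed by 2.86 (SE 0.308, adjusted p = 1.71e-05) and 1.93 (SE 0.24, adjusted p = 5.3e-05). Among the largest downward differences were those of the leaf senescence genes NAP, a NAC transcription factor, and SAG12, a cysteine protease. NAP had 3.47, 5.64 and 5.21 FPKM in the libraries labelled fer, against 33.98, 33.2 and 31.2 FPKM in ccr, a difference of -2.57 (SE 0.127, adjusted p = 2.21e-08), and SAG12 had 7.76, 6.13 and 5.67 FPKM in the libraries labelled fer, against 31.2, 30.5 and 33.3 FPKM in ccr, a difference of -2.13 (SE 0.091, adjusted p = 5.97e-09). The WT means were above both mutants, at 92.6 FPKM for NAP and 327 FPKM for SAG12. SAG21 was lower, at -1.78 (SE 0.155, adjusted p = 2.86e-06).

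Lignin genes moved both ways. Of 22 tested members 10 were higher (differences of 0.21 to 1.996) and 8 were lower (differences of -0.24 to -1.51), with a median difference of 0.01. LAC11, a laccase that polymerises monolignols, had 15.4, 13.95 and 13.2 FPKM in the libraries labelled fer, against 3.16, 2.399 and 2.87 FPKM in ccr, and the groups were apart by 1.996 (SE 0.152, adjusted p = 8.76e-07). PAL3, of the phenylalanine ammonia-lyase family at the head of the pathway, had 27.5, 27.01 and 21.8 FPKM in the libraries labelled fer, against 11.1, 10.9 and 9.52 FPKM in ccr, a difference of 1.195 (SE 0.137, adjusted p = 2.84e-05), whereas PAL4 of the same family had 73.9, 71.8 and 72.4 FPKM in the libraries labelled fer, against 122, 113 and 114 FPKM in ccr, a difference of -0.67 (SE 0.0726, adjusted p = 1.73e-05). The coumarate ligases split likewise: 4CL2 had 37.9, 38.1 and 34.04 FPKM in the libraries labelled fer, against 110.2, 109 and 100.2 FPKM in ccr and was lower, at -1.51 (SE 0.069, adjusted p = 1.11e-08), and 4CL3, which serves flavonoids, was higher by 1.12 (SE 0.222, adjusted p = 0.00182), with an adjusted p of 0.0505 under the AT2G01021 covariate. PER64, a peroxidase of the Casparian strip and of lignin, was lower, at -1.15 (SE 0.0998, adjusted p = 2.79e-06). The count of lower members was 5 without ccr replicate 1 and 4 with the AT2G01021 covariate, and after quantile normalization 7 were higher and 12 lower.

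Secondary wall cellulose and xylan genes were lower more often than higher. Of 21 tested members 12 were lower (differences of -0.203 to -1.51) and 2 were higher (differences of 1.18 to 1.503), with a median difference of -0.39. The cellulose synthases CESA4, whose levels are given above, and IRX3 differed by -0.92 (SE 0.11, adjusted p = 3.93e-05) and -0.81 (SE 0.0899, adjusted p = 2.16e-05). PGSIP3, a xylan glucuronosyltransferase, had 3.88, 3.02 and 3.71 FPKM in the libraries labelled fer, against 12.2, 11.7 and 11.7 FPKM in ccr, a difference of -1.51 (SE 0.137, adjusted p = 3.97e-06). The members called higher were XCP2 and XCP1, papain-like proteases of dying xylem vessels, at 55.6, 52.5 and 57.8 FPKM in the libraries labelled fer, against 18.8, 18.7 and 18.97 FPKM in ccr for XCP2 and differences of 1.503 (SE 0.0744, adjusted p = 2.18e-08) and 1.18 (SE 0.148, adjusted p = 5.82e-05). Summed over the 21 genes the level was 640.2, 593 and 624 FPKM in the libraries labelled fer, against 797, 794 and 802 FPKM in ccr, with 1380 to 1478 FPKM in ccrfer and 56.9 to 63.3 FPKM in WT. The ccrfer mean lay nearer fer for 2 of 14 called members (14.3%). Among the regulators of the secondary wall, of 25 tested members 5 were higher (differences of 0.47 to 1.25) and 4 were lower (differences of -0.56 to -1.86), with a median difference of 0.07. These shares, 20.0% and 16.0%, were near those over all tested genes, 20.5% and 18.5%. NAC007 (VND4), a vessel identity factor, had 2.85, 3.47 and 2.22 FPKM in the libraries labelled fer, against 0.406, 0.713 and 0.703 FPKM in ccr, a difference of 1.25 (SE 0.201, adjusted p = 0.0004), and the repressors of phenylpropanoid genes MYB4 and MYB7 were higher by 1.04 (SE 0.148, adjusted p = 0.000162) and 0.89 (SE 0.102, adjusted p = 2.74e-05). MYB63, an activator of lignin genes, had 5.95, 4.36 and 6.95 FPKM in the libraries labelled fer, against 23.2, 24.2 and 22.4 FPKM in ccr and was lower, at -1.86 (SE 0.158, adjusted p = 2.28e-06). XND1, a repressor of vessel differentiation, was lower, at -1.503 (SE 0.0726, adjusted p = 1.76e-08), and MYB52 was at -0.66 (SE 0.196, adjusted p = 0.0189). That call was lost in 3 of 18 alternative fits, among them those without fer replicate 3 or ccr replicate 3, with an adjusted p of 0.052 to 0.0708 in these. The number of lower regulators was 2 without fer replicate 3, without ccr replicate 3 and with the AT2G01021 covariate, and 3 were higher where only genes at 5 FPKM in 3 libraries were tested.

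Genes of the primary wall and cell expansion differed in both directions. Of 20 tested members 8 were lower (differences of -0.29 to -3.18) and 5 were higher (differences of 0.72 to 1.198), with a median difference of -0.15. EXPA10, an expansin that loosens the wall, had 3.04, 4.13 and 2.48 FPKM in the libraries labelled fer, against 37.4, 36.2 and 36.8 FPKM in ccr, and all libraries labelled fer lay below ccr, by -3.18 (SE 0.159, adjusted p = 2.32e-08). TCH4, a touch-induced xyloglucan-modifying enzyme, had 3.39, 4.28 and 1.702 FPKM in the libraries labelled fer, against 32.5, 35.7 and 32.1 FPKM in ccr, a difference of -3.11 (SE 0.311, adjusted p = 9.05e-06). EXPA4 had 113, 139.7 and 136 FPKM in the libraries labelled fer, against 58.1, 59.4 and 53.7 FPKM in ccr and was higher by 1.16 (SE 0.106, adjusted p = 4.11e-06), as were EXPA15 by 1.08 (SE 0.118, adjusted p = 1.79e-05) and XTH9 by 1.198 (SE 0.182, adjusted p = 0.000264). In the pectin group, of 14 tested members 5 were higher (differences of 0.38 to 1.82) and 3 were lower (differences of -0.43 to -0.64), with a median difference of 0.03. PGIP2, an inhibitor of fungal polygalacturonase, had 17.1, 21.4 and 20.7 FPKM in the libraries labelled fer, against 4.72, 4.64 and 5.22 FPKM in ccr, a difference of 1.82 (SE 0.118, adjusted p = 2.31e-07), whereas its tandem neighbour PGIP1 was lower, at -0.64 (SE 0.15, adjusted p = 0.0053). The pectin methylesterase genes AT2G45220 and PME61 were higher by 1.72 (SE 0.199, adjusted p = 2.89e-05) and 0.49 (SE 0.056, adjusted p = 2.67e-05). Of the lower members, only PGIP1 kept its call with the AT2G01021 covariate.

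**Figure D3:**
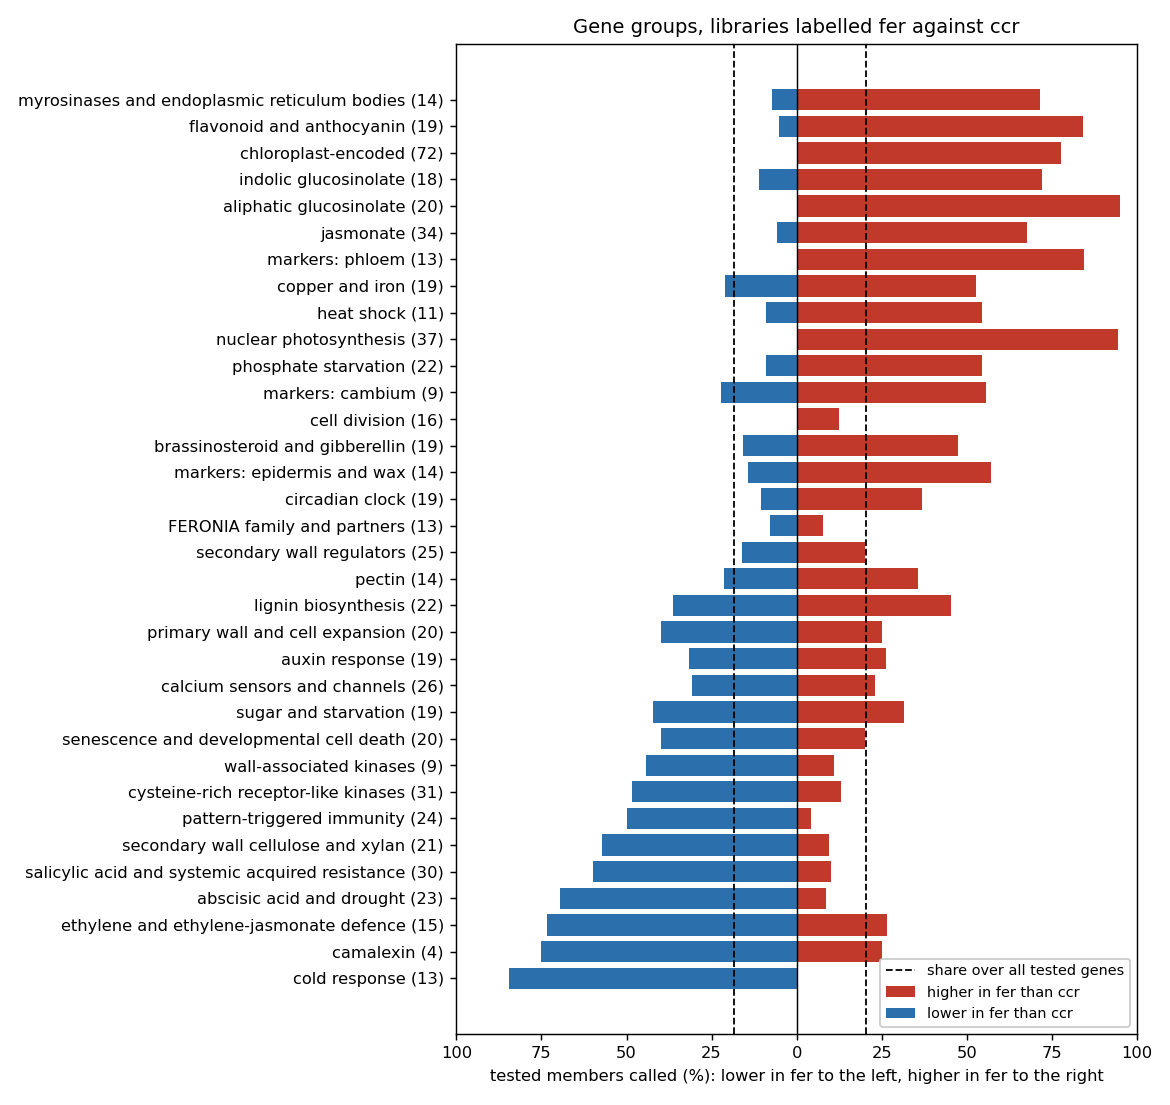
Share of the tested members of each gene group that was called higher (bars to the right) or lower (bars to the left) in fer than in ccr, in percent, with the number of tested members in parentheses and groups ordered by their median difference, seed markers left out. Dashed lines mark the shares over all tested genes, 20.5% higher and 18.5% lower, and the cold, camalexin and ethylene groups at the bottom contrast with the endoplasmic reticulum body and flavonoid groups at the top.

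Photosynthesis genes were higher in the libraries labelled fer. Of 37 tested members 35 were higher (differences of 0.25 to 1.67) and 0 were lower, with a median difference of 0.65. RBCS3B, a small subunit of Rubisco, had 284, 269 and 265 FPKM in the libraries labelled fer, against 92.3, 87.7 and 83.1 FPKM in ccr, a difference of 1.63 (SE 0.09, adjusted p = 5.67e-08). RBCS2B, a neighbouring copy, and CAB2, a chlorophyll-binding protein with near-identical neighbours, differed by 1.67 (SE 0.113, adjusted p = 3.19e-07) and 1.07 (SE 0.0804, adjusted p = 8.03e-07). After quantile normalization 22 were higher and 0 lower. Summed over the 37 genes the level was 15500, 14290 and 14200 FPKM in the libraries labelled fer, against 9459, 9052 and 8867 FPKM in ccr. Of 72 tested genes of the chloroplast genome 56 were higher and 0 lower, with a median difference of 1.21. Without the 5 listed at 0 in a genotype, 51 of 67 were higher and the median was 1.16. Summed over chloroplast genes not listed at 0 in a genotype, the level was 157600, 387800 and 200700 FPKM in the libraries labelled fer, against 92680, 121600 and 107200 FPKM in ccr. The chloroplast count changed with processing, to 27 higher and 0 lower under the AT2G01021 covariate and to 32 higher and 8 lower after quantile normalization. Among the 6 libraries compared, AT2G01021 and the chloroplast sum were both highest in fer replicate 2. In ccrfer AT2G01021 was at 6128100, 113705 and 45932600 FPKM, beside chloroplast sums of 191900, 136800 and 312100 FPKM. The part of AT2G01021 in these counts was not tested beyond the covariate. The ccrfer mean lay nearer fer for 3 of 35 called nuclear genes (8.6%) and for 39 of 56 called chloroplast genes (69.6%). Of 91 tested mitochondrial genes 21 were higher and 4 lower, with a median difference of 0.17, beside 20.5% higher and 18.5% lower over all tested genes.

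Seed storage transcripts stood at higher levels in the libraries labelled fer. Of 16 listed markers 11 passed the filter, 8 of them through the libraries labelled fer alone, so no count of calls is given for this group. SESA3, a 2S albumin, had 57.9, 56.2 and 68.1 FPKM in the libraries labelled fer, against 1.06, 0.312 and 0.511 FPKM in ccr, and all 3 WT libraries were listed at 0. CRU3, a cruciferin, had 27.2, 31.3 and 29.6 FPKM in the libraries labelled fer, against 0.366, 0.145 and 0.270 FPKM in ccr. SESA2, another albumin, had 24.3, 19.6 and 26.1 FPKM in the libraries labelled fer, against 0.196, 0.308 and 0.125 FPKM in ccr. CRU3 and SESA2 reached 1 FPKM in the libraries labelled fer alone, so the filter fixed that these lay above ccr. All 3 genes were also named for the size of their difference. The oleosin OLEO4 and the silique gene SHP1, which passed the filter through other libraries too, overlapped between the groups, with OLEO4 at 7.79, 6.73 and 4.83 FPKM in the libraries labelled fer, against 5.42, 4.57 and 4.0005 FPKM in ccr and differences of 0.38 (SE 0.174, adjusted p = 0.104) and -0.13 (SE 0.308, adjusted p = 0.779), and were not called. Summed over the 16 listed markers the level was 183, 185 and 197 FPKM in the libraries labelled fer, against 10.2, 9.04 and 8.94 FPKM in ccr, 4.76 to 8.39 FPKM in ccrfer and 1.57 to 2.45 FPKM in WT. The seed regulators were too low for the test: LEC1 was listed at 0 in all 12 libraries, FUS3 and ABI3 reached at most 0.437 and 0.183 FPKM, and the carpel gene STK was listed at 0 in all libraries labelled fer. Markers of flowers and pollen summed to 3.09, 5.41 and 3.49 FPKM over 16 genes in the libraries labelled fer, against 1.12, 0.809 and 0.756 FPKM in ccr, and 7 of them were at 0 in all libraries labelled fer and 6 in all of ccr. The single tested member, the pollen pectin methylesterase VGD1, had 1.66, 3.31 and 1.801 FPKM in the libraries labelled fer, against 0.171, 0.0772 and 0.147 FPKM in ccr, a difference of 1.49 (SE 0.212, adjusted p = 0.00016). The part of seed or pollen material in any other difference was not tested.

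**Figure D4:**
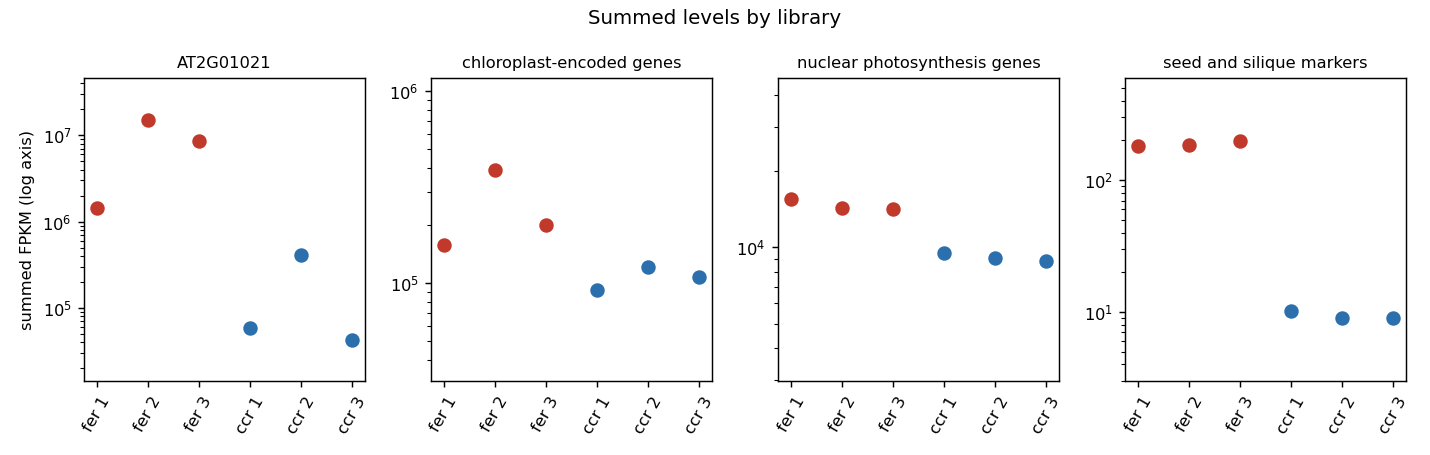
Summed FPKM on log axes for AT2G01021, 69 chloroplast-encoded genes not listed at 0 in a genotype, 37 nuclear photosynthesis genes and 16 seed and silique markers, with a point for each of the 3 libraries labelled fer and the 3 ccr libraries. In each panel the 3 libraries labelled fer lie above the 3 ccr libraries, and fer replicate 2 is highest for AT2G01021 and the chloroplast sum.

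Among markers of the tissues of a stem, those of the phloem, which carries sugars, were mostly higher. Of 13 tested members 11 were higher (differences of 0.33 to 1.45) and 0 were lower, with a median difference of 0.76. SWEET12, a sucrose exporter of the phloem, had 75.1, 68.4 and 77.4 FPKM in the libraries labelled fer, against 25.8, 26.1 and 26.7 FPKM in ccr, a difference of 1.45 (SE 0.0972, adjusted p = 2.94e-07). FTIP1, which helps to move the flowering signal, and APL, a regulator of phloem identity, were higher by 1.04 (SE 0.114, adjusted p = 1.93e-05) and 0.99 (SE 0.155, adjusted p = 0.000319). The phloem sum over 14 genes was 709 to 740 FPKM in the libraries labelled fer, against 477 to 511 FPKM in ccr, with 870 to 912 FPKM in WT. For cambium markers, of 9 tested members 5 were higher (differences of 0.23 to 0.78) and 2 were lower (differences of -0.43 to -0.57), with a median difference of 0.36. AT5G57130, a Clp domain protein gene of the SMXL family, and RUL1, a receptor kinase of cambium activity, were higher by 0.78 (SE 0.0987, adjusted p = 6.44e-05) and 0.55 (SE 0.131, adjusted p = 0.0059), and MOL1 by 0.57 (SE 0.127, adjusted p = 0.0036). HB-8, a vascular homeobox gene, had 32.2, 27.8 and 27.5 FPKM in the libraries labelled fer, against 41.01, 39.3 and 38.3 FPKM in ccr and was lower, at -0.43 (SE 0.0835, adjusted p = 0.00153), and WOX4 was at -0.57 (SE 0.164, adjusted p = 0.0157), a call lost without fer replicate 2 (adjusted p 0.0503) or ccr replicate 3 (adjusted p 0.0509). With the AT2G01021 covariate 3 cambium markers were higher. In the epidermis and wax group, of 14 tested members 8 were higher (differences of 0.24 to 1.03) and 2 were lower (differences of -0.502 to -2.76), with a median difference of 0.33. CER1, an alkane synthesis enzyme, ran against the group at 0.572, 1.82 and 0.860 FPKM in the libraries labelled fer, against 13.3, 13.1 and 11.7 FPKM in ccr, a difference of -2.76 (SE 0.192, adjusted p = 4.16e-07), with a ccrfer mean of 34.7 FPKM. GL2, LP1 and KCS10 were higher by 1.03 (SE 0.156, adjusted p = 0.000268), 0.73 (SE 0.173, adjusted p = 0.00559) and 0.62 (SE 0.0828, adjusted p = 0.000102), and CER2 was at -0.502 (SE 0.168, adjusted p = 0.0336). This call did not hold in 6 of 18 alternative fits, among them those without fer replicate 2, fer replicate 3, ccr replicate 1, ccr replicate 2 or ccr replicate 3, with an adjusted p of 0.0755 to 0.101 in these.

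Copper and iron genes were led by FSD1. Of 19 tested members 10 were higher (differences of 0.71 to 6.41) and 4 were lower (differences of -0.21 to -0.95), with a median difference of 0.71. NAS4, which makes the metal chelator nicotianamine, had 89.3, 87.7 and 79.1 FPKM in the libraries labelled fer, against 8.73, 8.32 and 7.94 FPKM in ccr, a difference of 3.21 (SE 0.296, adjusted p = 4.57e-06). BHLH101, a transcription factor of the iron deficiency response, had 9.87, 7.64 and 6.87 FPKM in the libraries labelled fer, against 0.0400, 0.162 and 0.171 FPKM in ccr and differed by 3.01 (SE 0.159, adjusted p = 3.61e-08). The copper enzyme CSD1, a superoxide dismutase that takes the place of FSD1 when copper is ample, had 342, 298 and 327 FPKM in the libraries labelled fer, against 623, 633 and 614 FPKM in ccr and was lower, at -0.95 (SE 0.125, adjusted p = 8.5e-05). Its copper chaperone CCS was lower, at -0.45 (SE 0.0986, adjusted p = 0.00322), with an adjusted p of 0.0939 under the AT2G01021 covariate, and the root ferric reductase FRO2 by -0.698 (SE 0.131, adjusted p = 0.00121). In the phosphate group, of 22 tested members 12 were higher (differences of 0.21 to 1.61) and 2 were lower (differences of -0.599 to -0.61), with a median difference of 0.45. SPX1, a phosphate sensor, had 16.04, 21.04 and 18.7 FPKM in the libraries labelled fer, against 6.67, 5.49 and 6.17 FPKM in ccr, a difference of 1.46 (SE 0.178, adjusted p = 4.67e-05), beside a WT mean of 211 FPKM. G3Pp1, a glycerol-3-phosphate transporter, and PS2, a pyrophosphatase, were higher by 1.61 (SE 0.0469, adjusted p = 2.74e-10) and 1.14 (SE 0.0689, adjusted p = 1.22e-07). The lower members were MGD2, at -0.61 (SE 0.15, adjusted p = 0.00672), and SPX4, at -0.599 (SE 0.209, adjusted p = 0.0395). The call for SPX4 failed in 7 of 18 alternative fits, among them those without fer replicate 1, fer replicate 3, ccr replicate 1, ccr replicate 2 or ccr replicate 3, with an adjusted p of 0.0804 to 0.14 in these. Sugar and starvation genes split. Of 19 tested members 8 were lower (differences of -0.35 to -4.18) and 6 were higher (differences of 0.57 to 1.78), with a median difference of -0.23. ASN1, a starvation-induced asparagine synthetase, had 2.997, 1.902 and 3.53 FPKM in the libraries labelled fer, against 0.127, 0.0873 and 0.0680 FPKM in ccr, a difference of 1.78 (SE 0.177, adjusted p = 8.68e-06), and SWEET2 and BT1 were higher by 1.42 (SE 0.18, adjusted p = 6.63e-05) and 0.796 (SE 0.104, adjusted p = 7.91e-05). The sugar transporter MSS1 and the trehalose phosphate synthase TPS10 were lower, at -1.45 (SE 0.16, adjusted p = 2.03e-05) and -1.302 (SE 0.0869, adjusted p = 2.92e-07). With genes under 5 FPKM left out the higher count was 3.

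Brassinosteroid and gibberellin genes, of hormones that promote stem growth, changed in part. Of 19 tested members 9 were higher (differences of 0.24 to 2.41) and 3 were lower (differences of -0.74 to -1.401), with a median difference of 0.33. BR6OX2 and CPD, enzymes of brassinosteroid synthesis, were higher, with BR6OX2 at 46.4, 52.1 and 58.1 FPKM in the libraries labelled fer, against 8.66, 8.31 and 10.01 FPKM in ccr and differences of 2.41 (SE 0.132, adjusted p = 5.06e-08) and 1.29 (SE 0.108, adjusted p = 2.08e-06). RGL3, a DELLA repressor of gibberellin responses, had 13.7, 13.2 and 11.3 FPKM in the libraries labelled fer, against 2.09, 1.48 and 1.57 FPKM in ccr, a difference of 2.34 (SE 0.168, adjusted p = 5.43e-07), while the gibberellin receptors GID1B and GID1A were lower, at -1.401 (SE 0.0818, adjusted p = 9e-08) and -0.98 (SE 0.144, adjusted p = 0.0002). For auxin, of 19 tested members 6 were lower (differences of -0.65 to -2.74) and 5 were higher (differences of 0.26 to 1.91), with a median difference of -0.15. That is 31.6% lower and 26.3% higher, against 18.5% and 20.5% over all tested genes. IAA7, a repressor, had 40.1, 44.7 and 40.7 FPKM in the libraries labelled fer, against 11.2, 9.51 and 10.5 FPKM in ccr, a difference of 1.91 (SE 0.139, adjusted p = 6.04e-07). DFL1 and WES1, GH3 enzymes that conjugate auxin, were lower, with WES1 at 5.81, 5.13 and 4.67 FPKM in the libraries labelled fer, against 37.8, 34.2 and 35.7 FPKM in ccr and differences of -2.74 (SE 0.182, adjusted p = 2.82e-07) and -2.58 (SE 0.0785, adjusted p = 4.09e-10), and PIN7, an efflux carrier, was lower, at -1.83 (SE 0.198, adjusted p = 1.75e-05). The higher count was 3 without fer replicate 1, ccr replicate 2 or ccr replicate 3. Among clock genes, of 19 tested members 7 were higher (differences of 0.29 to 1.101) and 2 were lower (differences of -0.37 to -0.66), with a median difference of 0.15. The morning genes LHY and RVE8 were higher, with LHY at 343, 340.0 and 328 FPKM in the libraries labelled fer, against 201, 201 and 198 FPKM in ccr and differences of 0.75 (SE 0.052, adjusted p = 3.98e-07) and 0.83 (SE 0.0917, adjusted p = 2.12e-05), and the evening gene TOC1 and PRR7 were lower, at -0.66 (SE 0.103, adjusted p = 0.000307) and -0.37 (SE 0.0592, adjusted p = 0.00037). With the AT2G01021 covariate 4 clock genes were higher. Of 16 tested cell division genes 2 (12.5%) were higher and 0 lower, against 20.5% and 18.5% of all tested genes. TSO2, a ribonucleotide reductase subunit, differed by 1.11 (SE 0.181, adjusted p = 0.000436), and SYP111, the syntaxin of the cell plate, by 0.68 (SE 0.241, adjusted p = 0.042). Its call was lost in 9 of 17 alternative fits, among them those without fer replicate 1, fer replicate 3, ccr replicate 1, ccr replicate 2 or ccr replicate 3, with an adjusted p of 0.0814 to 0.139 in these.

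The double mutant and the wild type were placed beside these differences without a test. For the 907 genes higher by at least 1, the ccrfer mean lay between the single mutants in 648, above both in 71 and below both in 188, and the WT mean lay between them in 460, above both in 76 and below both in 371. For the 656 genes lower by at least 1, the ccrfer mean lay between the mutants in 387, above both in 153 and below both in 116, and WT lay between them in 326, above both in 227 and below both in 103. The ccrfer mean was nearer fer than ccr in 332 of the 907 (36.6%) and in 291 of the 656 (44.4%). Among groups with 5 or more called members, seed markers left out, the shares nearer fer were highest for endoplasmic reticulum bodies, salicylic acid and cysteine-rich receptor-like kinases (16 of 19 called, 84.2%) and lowest for nuclear photosynthesis, clock genes (1 of 9), heat shock genes (1 of 7), secondary wall cellulose and xylan genes and copper and iron genes (2 of 14 in each of the last pair). Aliphatic glucosinolate genes stood at 15 of 19, while PR1 at 0.674 FPKM and PR5 at 101 FPKM in ccrfer lay below both single mutants.

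**Figure D5:**
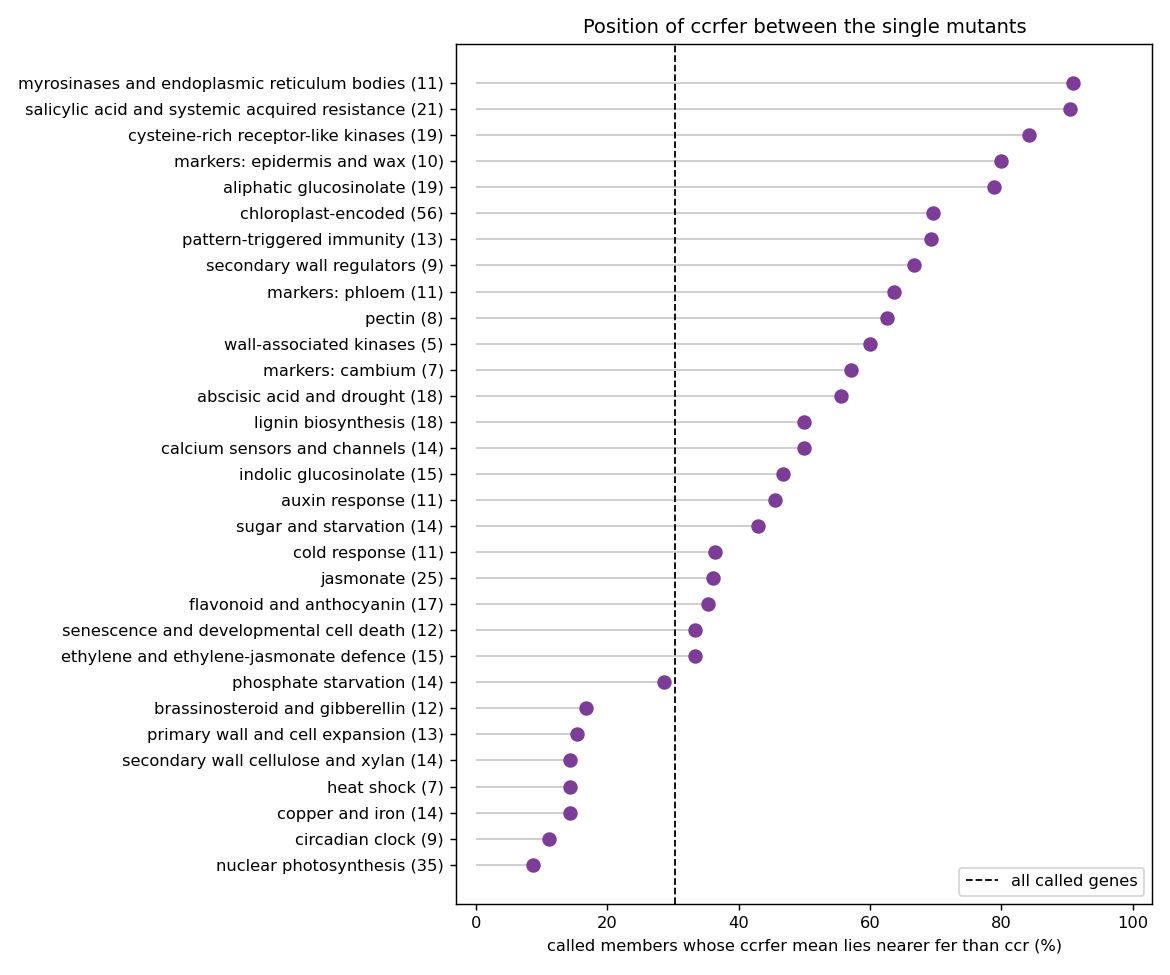
Share of the called members of each gene group whose ccrfer mean on the log2(FPKM + 1) scale lies nearer fer than ccr, in percent, with the number of called members in parentheses, for groups with 5 or more, seed markers left out. The dashed line marks the share over all 7185 called genes, 30.3%, and groups run down from endoplasmic reticulum bodies at 90.9% to nuclear photosynthesis at 8.6%.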

How the data were processed

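Messenger RNA was sequenced from 12 stem libraries of 4 genotypes as paired 75 bp reads from a stranded kit, per the labels' protocols. Reads were aligned to TAIR10 by TopHat2 2.1.1 on Bowtie2 2.3.2.0, then quantified with Cufflinks 2.2.1 and Cuffdiff, per the submitters' processing notes. The FPKM values were deposited by the authors for 27655 genes. The authors' mean FPKM of 313 genes, in a second deposited table, differed from the means of the libraries by at most 0.00063%. Read counts and the mapped fraction per library came from the authors' deposited read report. No read count of a single gene entered, so its counting error was unknown.

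limma 3.58.1 in R 4.3.3 was fitted to log2(FPKM + 1) of all 12 libraries with genotype means and a variance trend, with the two-sided p adjusted over 18428 genes (Benjamini and Hochberg). SE is that of the fit. The pseudocount of 1 understates differences of genes at low FPKM. The members and the 36 gene lists were chosen with earlier results of these data known, and 865 of 912 list entries matched the reference table, of which 716 were tested. Genes named are FER, CCR1 and the genes within 4 places of FER, the 15 largest differences each way (groups not overlapping, mean of 5 FPKM or more in the higher group) and up to 3 members each way of each list, with exceptions stated. Symbols and promoter sequences came from RefSeq assembly TAIR10.1, and all 312 coordinates compared in the authors' second table overlapped the same gene there. Strand use in counting was not given in the sources used here, so reads of overlapping antisense genes may not be told apart. The steps were tested on simulated data. Replicate numbers were not taken to pair the libraries, because of the correlations given below.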

Additional observations from a re-analysis of the deposited data

How the results depend on the processing

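The counts of 3782 higher and 3403 lower genes stayed within 1.5 times under all 18 alternatives, from 3041 to 4436 higher and from 2310 to 4102 lower. Quantile normalization called 3505 higher and 3838 lower (47.7% higher, against 52.6%) and turned the direction of 12 calls. An alternative chosen after seeing the data left out genes listed at 0 in all fer or all ccr libraries and called 3768 and 3389. The replicate block called 3727 higher and 3306 lower, and same-numbered fer and ccr libraries deviated together with correlations of 0.0319 to 0.0699, so the numbers were not taken to pair them. These correlations are over all tested genes and can miss an effect on few genes. AT2G01021 was highest in replicate 2 of fer, ccr and WT and lowest in replicate 2 of ccrfer. Leaving out single libraries gave 3041 to 3508 higher and 2594 to 3286 lower. Of 193 named genes tested, 163 kept their call and direction throughout, 29 lost a call in at least 1 alternative and FER gained one in 2, while 0 changed direction among calls. The fits with AT2G01021 as covariate use a value that itself differs between the groups. Low genes were resolved less far in fer: the lowest percentile of values above 0 began at 0.0405, 0.245 and 0.160 FPKM in the libraries labelled fer, against 0.0282, 0.0207 and 0.0255 FPKM in ccr. In total fer replicate 3 had 96112323 mapped reads and ccr replicate 3 had 93767519. The part of depth in this lowest percentile was not tested.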

Other observations

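Motifs of other pathways were counted in the same 250 bases before the start, on both strands, as a description. CACGTG stood in 5 of 19 tested flavonoid and anthocyanin genes (26.3%), against 7.4% of the 18263 tested genes with a window, 10.2% of those higher by at least 1 and 9.2% of those lower by at least 1. It was more frequent in clock genes (7 of 19, 36.8%) and in the tested seed markers (5 of 11, 45.5%). TTGAC stood in 17 of 24 tested genes of pattern-triggered immunity (70.8%) and in 15 of 30 of the salicylic acid group, against 44.9% of all these windows. Shares were higher still in cysteine-rich receptor-like kinases (24 of 31, 77.4%), wall-associated kinases (7 of 9, 77.8%) and camalexin genes (3 of 4, 75.0%).

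AT1G20620 was listed at 0 in all 3 WT libraries and had means of 3009 FPKM in fer, 2790 FPKM in ccr and 3055 FPKM in ccrfer. AT2G15029 was listed at 0 in all libraries labelled fer and of ccrfer and had means of 15.4 FPKM in ccr and 112 FPKM in WT.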
